A study of Mus musculus with 5 samples.

Results

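The comparison set 2 knockdown libraries of mouse embryos against each other, one labelled as given H3.3 mRNA and one labelled as given H3.2 mRNA. They are 2 of 5 RNA-seq libraries, 1 per group, and were chosen by their titles. The title of the library labelled H3.2 mRNA does not name a stage, and all other titles name the 4-cell stage. Of 22026 gene symbols, 13144 had a mean of at least 1 FPKM (fragments per kilobase of transcript, relative to the library's mapped total) over the 5 libraries and entered the comparison. All embryos were made by nuclear transfer, that is, from an enucleated oocyte given a donor nucleus, and the strain is B6D2F1. The other libraries are untreated embryos, embryos treated with luciferase, and H3.3 knockdown embryos without added mRNA. Both compared groups thus carry the knockdown. The donor cell, the knockdown reagent, the number of embryos and the time of injection are not given in the sources used here.

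H3.3 is the form of histone H3 that is placed into chromatin outside of DNA replication, by the HIRA complex at genes and by DAXX with ATRX at heterochromatin. H3.2 is a close relative that is placed behind the replication fork by the CAF-1 complex, and its genes lie in the replication-dependent histone clusters. Oocytes hold a store of H3.3, and the study asked, by its title, about H3.3 as a maternal factor in reprogramming by the oocyte. An add-back with H3.2 mRNA supplies a histone H3 that differs from H3.3 in few residues.

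Some facts of the libraries bear on every value. There was 1 library a side, so no difference has a replicate check, no p-value is given, and called below means at least 4-fold apart, a difference of 2 in log2(FPKM + 1). That scale understates the change of low genes. The H3.2-labelled library carries contradictory labels, with H3.2 mRNA in its title and in the design text but H3.3 mRNA in the treatment field. The title was followed, and every direction below depends on it. The source name of the H3.3-labelled library is NT, as for the untreated and knockdown libraries, and that of the H3.2-labelled library is SCNT, as for the luciferase library. Each source name holds 1 add-back library, so source name and added mRNA cannot be told apart. The depth is unknown. The H3.3-labelled library had 11280 genes above 0 FPKM and the H3.2-labelled library 12261, and the other NT libraries had 10443 and 10496 against 12300 in the luciferase library. In bulk embryos, fewer cells of a kind and less RNA per cell cannot be told apart.

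Most markers of the labelled tissue were present. Of 12 early embryo markers, 10 were above 0 in each compared library, and of 11 oocyte markers 9 in the H3.3-labelled and 8 in the H3.2-labelled library. Cdx2, Figla and Nobox were listed at 0 in both, Krt18 in the H3.3-labelled library, and Zscan4d and Mos in the H3.2-labelled library. The oocyte and early embryo gene Dppa3 stood at 8550.2 FPKM in the H3.3-labelled and 4818 FPKM in the H3.2-labelled library, and the pluripotency factor gene Pou5f1 at 391 and 157 FPKM. Of 12 fibroblast and mesenchymal markers, Fn1 alone was above 0 in each compared library (54.3 and 15.1 FPKM), and Col1a1, Col3a1, Thy1 and Dcn were listed at 0 in all 5. Of 10 cumulus and granulosa markers, 3 and 4 were above 0, with sums of 37.4 and 32.6 FPKM, and Amh, Fshr, Has2 and Ptx3 were listed at 0 in both. Of 9 blood and endothelial markers, Pecam1 and Tie1 made up nearly all of sums of 1119 and 148 FPKM, and Ptprc, Cdh5, Kdr and Cd34 were listed at 0 in all 5 libraries.

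The summed level of the H3.3 genes lay under the knockdown in both add-back libraries. H3f3a and H3f3b both encode H3.3. H3f3a stood at 95.5 FPKM in the H3.3-labelled library and 128.6 FPKM in the H3.2-labelled library, and H3f3b at 371 and 292 FPKM, against 128.5 and 535 FPKM in the knockdown. Their sums, 467 and 420.1 FPKM, differed 1.11-fold, and both lay under the 664 FPKM of the knockdown library (70.3% and 63.3% of it). The controls held far more, with sums of 5266 FPKM (untreated) and 5734 FPKM (luciferase). The H3.2 and H3.1 genes gave little: of 12 replication-dependent H3 genes, 11 had a symbol in the files, and each of these was listed at 0 in the H3.3-labelled library. In the H3.2-labelled library Hist1h3g stood at 12.1 FPKM, Hist1h3a at 2.76 FPKM, Hist1h3e at 0.11 FPKM and Hist1h3f at 0.05 FPKM, and the others were listed at 0. The untreated library, without added mRNA, had Hist1h3a at 16.6 FPKM, Hist1h3f at 5.87 FPKM and Hist1h3g at 3.06 FPKM. In the knockdown all 11 were listed at 0. These genes have near-identical copies, so the division of reads among them is uncertain. No value here shows the delivery of either added mRNA, so directions are given by the libraries' labels.

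The 2 add-back libraries were closer to each other than the other pairs examined. Not every pair was compared: the luciferase and H3.2-labelled libraries, which share a source name, were not, nor were the untreated and H3.3-labelled libraries. In the H3.3-labelled library 1101 genes (8.38%) were called higher and 1661 (12.6%) lower than in the H3.2-labelled library, or 2762 (21%) in all. The untreated and luciferase libraries differed at 4849 genes (36.9%), the H3.3-labelled library and the knockdown at 3472 (26.4%), and the H3.2-labelled library and the knockdown at 3756 (28.6%). Pearson's r across the 13144 genes was 0.835 for the add-back pair, 0.743 for the control pair, and 0.803 and 0.805 for the add-back libraries with the knockdown. Genes share their library and are not replicates. Over the 8520 genes above 0 in all 5 libraries, 8.57% were called in the add-back pair, 23.7% in the control pair, and 14.5% and 16.5% in the pairs with the knockdown.

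Most calls came from low values. Of the 1101 higher genes, 566 were listed at 0 in the H3.2-labelled library, and of the 1661 lower genes 1074 were listed at 0 in the H3.3-labelled library. In 232 and 369 of them, the mean of the other 4 libraries was under 1 FPKM, so those genes passed the filter through the library in which they are high. The share called was 45% among genes with a mean of 1 to 5 FPKM and 4.9% at 100 to 1000 FPKM. At 1000 FPKM or more, 10 of 658 genes were called (1.52%), and all 10 were higher in the H3.3-labelled library. Under quantile normalization the calls were 1323 higher and 1366 lower, so the surplus of lower over higher genes changed with the scaling.

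**Figure D1:**
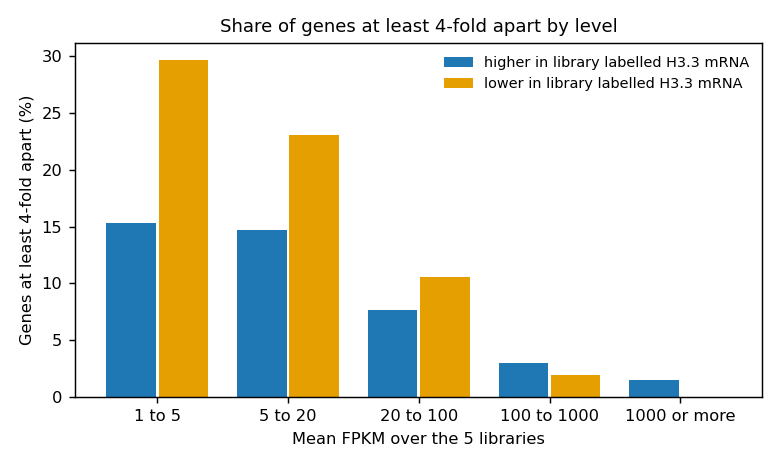
Share of genes at least 4-fold apart (y axis, %) in 5 classes of mean FPKM over the 5 libraries (x axis), with blue bars for genes higher and orange bars for genes lower in the library labelled H3.3 mRNA. The share falls with level, from 45% in both directions together at 1 to 5 FPKM to 1.52% at 1000 FPKM or more, where no gene was lower.

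The called genes of high level included enzymes and ribosomal proteins. They are named here by their level, after their values were seen. Mt2, which encodes a metallothionein that binds zinc and copper, stood at 7028 FPKM in the H3.3-labelled and 662 FPKM in the H3.2-labelled library, with 2824.5, 1385 and 8633 FPKM in the untreated, luciferase and knockdown libraries. The H3.2-labelled library was the lowest of the 5. Bhmt, which encodes the betaine-homocysteine methyltransferase, stood at 1920.4 against 337 FPKM, and Gldc, a subunit of the glycine cleavage system, at 2127 against 495 FPKM. For both, the luciferase library (1779 and 1851 FPKM) lay with the H3.3-labelled one and the knockdown (292 and 226 FPKM) was the lowest. Ctsc, a lysosomal cysteine protease gene, stood at 4119.6 against 914 FPKM, and Nedd8, which encodes a ubiquitin-like modifier, at 2136 against 506 FPKM.

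The 15 genes with the largest excess in the H3.3-labelled library, among those above 0 in all 5 libraries, were led by Rps23, a protein of the small ribosomal subunit. Rps23 stood at 76.8 FPKM in the H3.3-labelled library and 0.18 FPKM in the H3.2-labelled library. It was at 119.7 FPKM in the untreated, 155 FPKM in the knockdown and 0.22 FPKM in the luciferase library, so the 3 NT libraries were high and both SCNT libraries near 0. Ribosomal protein genes have many near-identical copies, and this value can reflect how reads were divided. Acsm3, an acyl-CoA synthetase gene of mitochondria, stood at 74.7 against 0.29 FPKM, and at 2.81, 71.2 and 124 FPKM in the untreated, luciferase and knockdown libraries. Fosl1, an AP-1 component, stood at 236 against 3.44 FPKM (68.5-fold) and was high elsewhere in the untreated library only (171 FPKM, against 1.63 FPKM with luciferase and 2.76 FPKM in the knockdown). Ckmt1, the mitochondrial creatine kinase gene, stood at 129 against 3.24 FPKM (39.9-fold), and the other 3 libraries lay between 109 and 238 FPKM. The phosphatase gene Dusp28 stood at 86.8 against 1.63 FPKM, and Vil1, which encodes the microvillus protein villin, at 50.9 against 1.59 FPKM. Zfp947, Fkbpl, Wfdc3, Fam100b and Rpl39l lay between 21.2 and 177 FPKM in the H3.3-labelled library and at 6.8 FPKM or less in the other. Foxa1, Gal3st2, Spic and S100pbp complete the 15 and are described with the other libraries.

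The 15 genes with the largest deficit were of mixed function. Iqca stood at 5.33 FPKM in the H3.3-labelled and 206.5 FPKM in the H3.2-labelled library (38.7-fold higher there), where the other 3 libraries lay between 12.4 and 31.9 FPKM, so the H3.2-labelled library stood alone. The growth factor gene Fgf1 stood at 9.48 against 209.6 FPKM (22.1-fold higher with the H3.2 label), with 63.2 to 166 FPKM in the others, so the H3.3-labelled library was the lowest. Rmnd1, a gene of mitochondrial translation, stood at 0.13 against 39 FPKM, and Nfxl1 at 2.08 against 72.9 FPKM, each likewise lowest in the H3.3-labelled library. A second kind was low in both the H3.3-labelled and the untreated library. Neat1, the RNA scaffold of paraspeckles, stood at 2.23 FPKM in the H3.3-labelled and 9.48 FPKM in the untreated library, against 63 FPKM in the H3.2-labelled, 157 FPKM in the luciferase and 146 FPKM in the knockdown library. Tusc3, a subunit of the oligosaccharyltransferase, was likewise low in both, with 4.97 and 18.4 FPKM against 142, 103 and 159 FPKM. Rgn, Rpusd3, Gpr137 and the nonclassical MHC gene H2-T22 had the same split, at 10.1 FPKM or less in the H3.3-labelled library and 34.8 to 266 FPKM in the H3.2-labelled one. Qser1, Zfp938 and Ugt1a5 stood at 0.33 to 1.79 FPKM against 22.9 to 43.7 FPKM. Ugt1a5 shares exons with its neighbours, so its value is uncertain. Zfp451 and Cnp complete the 15.

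Among genes listed at 0 in 1 of the 2 libraries, no fold is given. Those highest in the H3.3-labelled library were Isoc2b (166 FPKM), St6galnac6 (115 FPKM), the cartilage matrix gene Comp (107 FPKM), Cox7a1 (91.7 FPKM), the ciliary transport gene Ift27 (91 FPKM) and Duoxa2 (80.2 FPKM). Cox7a1, a subunit gene of cytochrome c oxidase, was above 0 in the other 3 libraries (35.9 to 198 FPKM), so it was listed at 0 only in the H3.2-labelled library. Tubd1 (delta-tubulin, 102.5 FPKM) and Cklf (93.6 FPKM) led the genes listed at 0 in the H3.3-labelled library, together with 6 small nucleolar RNA genes. Of these, Snord12 stood at 339 FPKM and Snord34 at 329 FPKM in the H3.2-labelled library, and Snora33, Snord96a, Snora64 and Snord33 at 112 to 296 FPKM. Snord22 and Snord17 went the other way, at 100.2 and 88.5 FPKM against 0. FPKM of such short RNAs is unstable, and 23 of 52 small RNA genes past the filter (44.2%) were called, 9 higher and 14 lower.

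The other 3 libraries, which did not enter the comparison, were then placed on one side or the other of the midpoint between both add-back log2 values. If an add-back restores the level of the controls, the controls lie on its side and the knockdown on the other. Of the 2762 called genes, 240 (8.69%) had both controls on the side of the H3.3-labelled library and the knockdown on the side of the H3.2-labelled library. The mirror image, with both controls on the H3.2 side and the knockdown on the H3.3 side, held for 221 genes (8%). Over called genes above 0 in all 5 libraries the counts were 71 and 64 of 730. The 2 patterns were thus nearly equal in number. In 544 genes (19.7%) the H3.2-labelled library stood apart from all others, and in 482 (17.5%) the H3.3-labelled library. Of these, 288 and 192 passed the filter through the library in which they are high, which favours this pattern. Without all such genes, 256 and 290 of 2161 stood apart (11.8% and 13.4%), and the mirror-image patterns held 230 and 220 genes.

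Each other library taken alone lay close to evenly between both sides. The untreated library was on the H3.3 side for 55.6% of the called genes, the luciferase library for 47.4% and the knockdown for 51.4%. The directions differed, since of the 1661 lower genes 66.3% had the untreated and 61.8% the knockdown on the H3.3 side, against 39.4% and 35.7% of the 1101 higher genes. Both those libraries list more genes at 0, and a gene at 0 there lies on the low side. Above 0 in all 5 libraries, the shares for the untreated library were 66.2% of 328 higher and 48.8% of 402 lower genes. The source name split, with untreated and knockdown on the H3.3 side and luciferase on the H3.2 side, held for 420 called genes (15.2%), 326 of them lower, and its reverse for 289 (10.5%). Without the genes that passed the filter through the library in which they are high, the split held for 372 of 2161 (17.2%). That was the largest count of any pattern in that set, and the reverse held for 256 (11.8%). Over called genes above 0 in all 5 libraries, the counts were 97 and 63 of 730. Across all 13144 genes, the add-back difference had a Pearson's r of 0.04 with the difference untreated minus luciferase and 0.01 with knockdown minus luciferase. Each of these pairs crosses the source names and shares no library with the add-back pair.

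**Figure D2:**
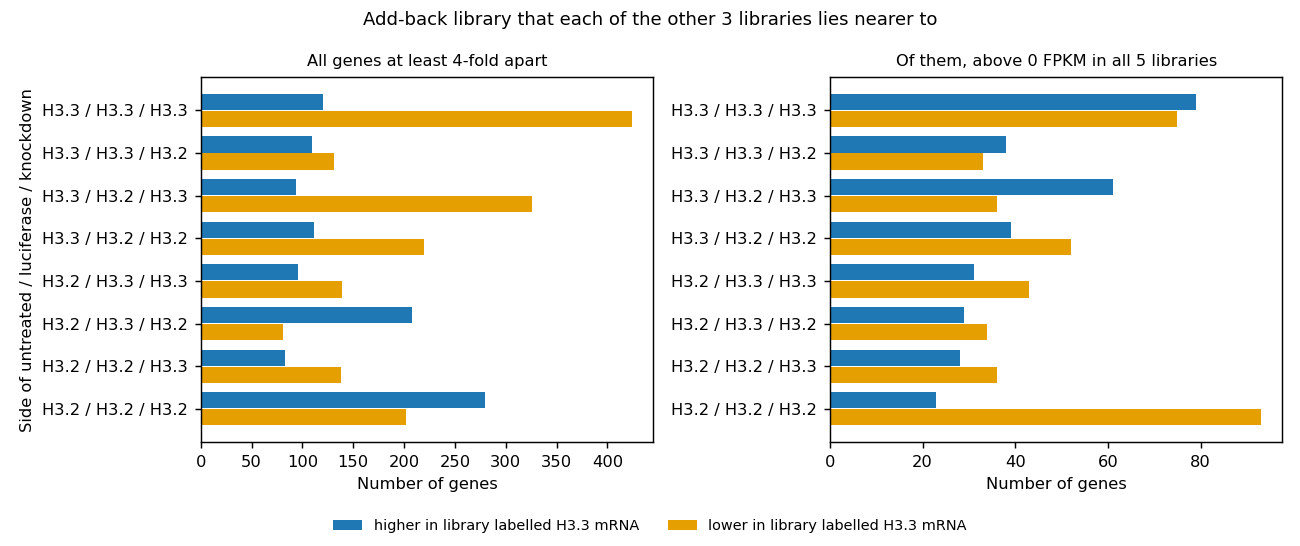
Number of called genes (x axis) in each of 8 patterns (y axis, the add-back library that the untreated, luciferase and knockdown libraries lie nearer to, in that order), for all 2762 called genes on the left and the 730 above 0 in all 5 libraries on the right. The pattern H3.3 / H3.3 / H3.2 (109 higher and 131 lower genes on the left) and its mirror image H3.2 / H3.2 / H3.3 (83 and 138) are close in number.

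The genes with the largest differences in the first pattern included 3 genes of transcription factors. Foxa1, a pioneer factor that opens chromatin in endoderm, stood at 106.5 FPKM in the H3.3-labelled library, 132 FPKM (untreated) and 34.2 FPKM (luciferase) in the controls, against 1.99 FPKM in the H3.2-labelled library and 2.35 FPKM in the knockdown. The add-back libraries differed 53.5-fold. Spic, an ETS factor related to PU.1, stood at 2136 FPKM, 644 FPKM and 1955 FPKM in the first 3 and at 80.6 FPKM and 151 FPKM in the last 2, a difference of 26.5-fold between the add-back libraries. Tbx3, which encodes a T-box regulator, was likewise high in the first 3 (66.9, 72.7 and 120.3 FPKM) and low in the last 2 (3.09 and 1.34 FPKM). These genes were chosen by this pattern, so it follows from the choice that the 3 high libraries lie above both low ones. Pecam1, an adhesion gene of endothelium that is also made in pluripotent cells, stood at 647 FPKM with the H3.3 label and 40.4 FPKM with the H3.2 label, with 215, 184 and 65.6 FPKM in the untreated, luciferase and knockdown libraries. Gal3st2, the receptor activity gene Ramp2 and the hemidesmosome integrin gene Itgb4 lay at 43.3, 70.8 and 187 FPKM against 0.64, 3.73 and 13.3 FPKM. Magi1, a scaffold of tight junctions, had the same pattern in the other direction, at 0.84 against 25.2 FPKM, where the controls stood at 0.97 and 1.42 FPKM and the knockdown at 7.18 FPKM.

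In the mirror-image pattern the H3.2-labelled library lay with the controls. Dab2, an endocytic adaptor of primitive endoderm, stood at 67.4 FPKM in the H3.2-labelled library, 140.5 FPKM (untreated) and 482 FPKM (luciferase) in the controls, against 3.51 FPKM in the H3.3-labelled library and 13.2 FPKM in the knockdown. The H3.2-labelled library was 19.2-fold above the H3.3-labelled one. Zfp451, a SUMO ligase gene, stood at 113 FPKM with the H3.2 label and 1.62 FPKM with the H3.3 label, with 18.1 and 43.9 FPKM in the controls and a knockdown value of 14.1 FPKM. The knockdown and the untreated value of Zfp451 lie close together on either side of the midpoint. Cnp, a phosphodiesterase gene of myelin, stood at 101.2 against 4.74 FPKM, where the controls stood at 71.1 and 57.2 FPKM and the knockdown at 15.4 FPKM. S100pbp, Vwa5b2, the lubricin gene Prg4, Tnfaip8l2 and Gipc2 were high in the H3.3-labelled library (32.2 to 176 FPKM) and the knockdown (35.9 to 87 FPKM), and low with the H3.2 label (1.08 to 10.3 FPKM). In the controls these 5 genes lay between 0.19 and 28.8 FPKM.

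**Figure D3:**
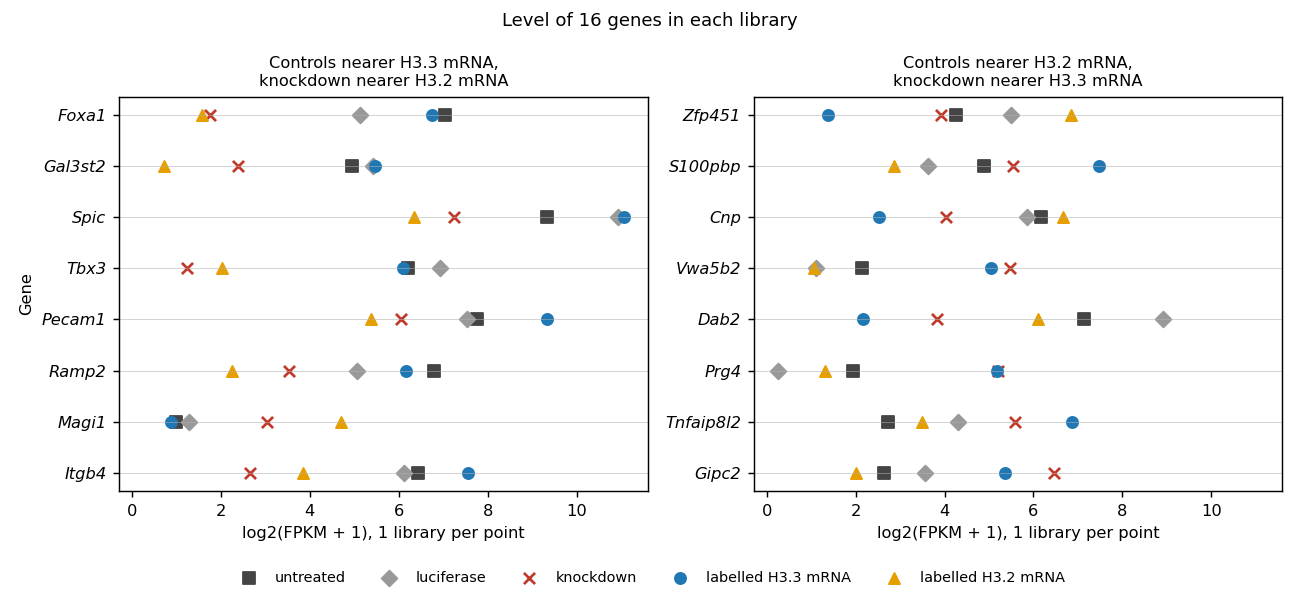
Level in log2(FPKM + 1) (x axis) of 16 genes (y axis) in each of the 5 libraries, 1 point per library, with genes for which the controls lie nearer the library labelled H3.3 mRNA on the left and nearer the library labelled H3.2 mRNA on the right. Foxa1, Spic and Tbx3 are high in both controls and with the H3.3 label, and Dab2 is high in both controls and with the H3.2 label.

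The promoters of Foxa1, Spic and Dab2 are shown to set both patterns side by side, from a RefSeq promoter table of GRCm38.p6. These genes and Tbx3 were chosen after their values were seen. Tbx3 had no match, and the other genes just described were left out of this choice. Each window runs from 250 bases before to 50 bases after the first listed start, 5′ to 3′ on the gene's strand, with each CG dinucleotide in capitals. The files use mm9, so the coordinates are those of the table.
Foxa1, chr12:57546062-57546361 (minus strand): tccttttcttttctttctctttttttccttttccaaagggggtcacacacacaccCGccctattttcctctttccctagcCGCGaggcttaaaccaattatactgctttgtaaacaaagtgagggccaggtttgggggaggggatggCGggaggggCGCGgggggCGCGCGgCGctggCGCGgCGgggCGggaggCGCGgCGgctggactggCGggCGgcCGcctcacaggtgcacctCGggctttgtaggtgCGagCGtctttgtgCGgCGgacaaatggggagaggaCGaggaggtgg
Spic, chr10:88682974-88683273 (minus strand): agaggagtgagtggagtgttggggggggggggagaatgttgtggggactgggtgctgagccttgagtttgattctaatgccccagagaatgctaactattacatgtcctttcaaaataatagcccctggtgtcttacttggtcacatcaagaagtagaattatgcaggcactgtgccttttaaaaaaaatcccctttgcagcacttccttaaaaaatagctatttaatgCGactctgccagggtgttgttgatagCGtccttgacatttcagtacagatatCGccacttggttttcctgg
Dab2, chr15:6299539-6299838 (plus strand): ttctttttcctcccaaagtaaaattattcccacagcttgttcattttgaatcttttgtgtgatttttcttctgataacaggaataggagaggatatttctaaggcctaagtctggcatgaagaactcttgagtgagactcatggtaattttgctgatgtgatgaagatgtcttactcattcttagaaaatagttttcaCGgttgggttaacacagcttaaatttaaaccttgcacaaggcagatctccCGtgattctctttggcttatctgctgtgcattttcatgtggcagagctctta
The Foxa1 window holds 26 CG dinucleotides, the Spic window 3 and the Dab2 window 2, against a median of 20 over the 10343 genes past the filter with a promoter entry. The promoters of Foxa1 and Spic, genes with the same pattern over 5 libraries, thus differed in CG content. On either strand, CCAAT was found in the Foxa1 window and in neither of the others, and it occurs in 39.4% of all 10343 windows. TATAAA (7.54% of all windows) and the AP-1 motif TGANTCA (4.94%) were found in none of the 3.

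Promoter entries covered 78.7% of the genes past the filter, under the 80% set for a check of called against other genes, so that check is void. Transcript length had a value for 98.8%. Long transcripts were less often called higher: 11.4% of the 2599 shortest and 5.74% of the 2596 longest genes were called higher, and 12.9% of each were called lower. Across 12992 genes the length had a rank correlation of -0.11 with the add-back difference. On the X chromosome 53 of 458 genes (11.6%) were higher and 66 (14.4%) lower, against 8.38% and 12.6% of all genes past the filter. The X had the highest share of higher genes of the chromosomes compared. On the others the share higher ran from 5.92% (chromosome 18) to 11.3% (chromosome 15). The share lower ran there from 8.91% (chromosome 15) to 15.4% (chromosome 6). Among genes above 0 in all 5 libraries, the X held 4.35% of the higher and 1.75% of the lower genes, against 3.04% of all.

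Gene groups were described by 33 lists, and each count of called members is read against 8.38% higher and 12.6% lower over all genes, whose median difference was 0. That background differs by level. The median difference was 0.06 at a mean of 100 to 1000 FPKM (4.9% called) and 0.40 at 1000 FPKM or more (1.52% called). No list was compared with genes of its own level. Of 115 distinct genes called in the lists, 12 had a mean under 1 FPKM over the libraries other than the high one. Among them were Hist1h3g, H2afy2, Kdm4d, Hdac9, Mkrn3, Star, Tcfap2a, Col2a1 and Acta1, which passed the filter through that library. Cytosolic ribosomal proteins were the list furthest toward the H3.3-labelled library. Of 84 members in the files 83 passed the filter, with a median difference of 1.12 on the log2 scale. Of them 77 lay above 0 and 6 below, and 9 were called higher and 0 lower. Rps15, of the small subunit, stood at 7764 against 1703 FPKM, and at 4711, 4129 and 7676 FPKM in the untreated, luciferase and knockdown libraries. Rpl39, of the large subunit, stood at 1897 against 299.6 FPKM and Rpl13 at 1134 against 238 FPKM. In each of these the H3.2-labelled library was the lowest of the 5. Rpl22l1 (360.5 against 54.5 FPKM), Rpl39l (118 against 4.95 FPKM) and Rpl10l (439 against 106.7 FPKM) are paralogues of ribosomal protein genes. The summed FPKM of the list was 7.89% of the library total with the H3.3 label and 5.16% with the H3.2 label, and 6.82% to 9.58% in the other 3, so the H3.2-labelled library lay outside the range of the others.

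Nuclear-encoded respiratory chain and ATP synthase genes, whose products make ATP in mitochondria, had a median of 0.59 over 81 members, with 64 above 0 and 17 below. Called members were 5 higher (6.17%) and 2 lower (2.47%), so called members were no more frequent than among all genes. Ndufs5, of complex I, stood at 429 against 53.5 FPKM, Cox6c, of complex IV, at 458 against 100.5 FPKM, and Cox6b2 at 137 against 20.9 FPKM. Uqcrfs1, the Rieske protein gene of complex III, went the other way at 170 against 701 FPKM, as did Cox4i2 (listed at 0 against 5.47 FPKM). Ribosome biogenesis genes had a median of 0.49 with 0 of 45 called. Bop1 (775 against 197 FPKM) and Rrp9 (1409 against 402 FPKM) differed most, and Nop10 (126.6 against 436.5 FPKM), Rrp12 (1320 against 411 FPKM) and Taf1c (382 against 121 FPKM) followed. Translation initiation factors (0.37, 0 of 39 called) and splicing factors (0.32, 2 of 38 higher, Snrpg at 1199.9 against 264 FPKM and U2af2 at 36.7 against 8.28 FPKM) lay between. Quantile normalization turned the translation initiation median to -0.02 and lowered that of ribosome biogenesis to 0.10. Mitochondrial ribosomal proteins had a median of 0.12, whose sign turned in 2 of 11 alternatives. Of these genes 1 of 76 was called higher and 2 lower, led by Mrps25 (9.75 against 143 FPKM) and Mrpl17 (13.8 against 139.7 FPKM).

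**Figure D4:**
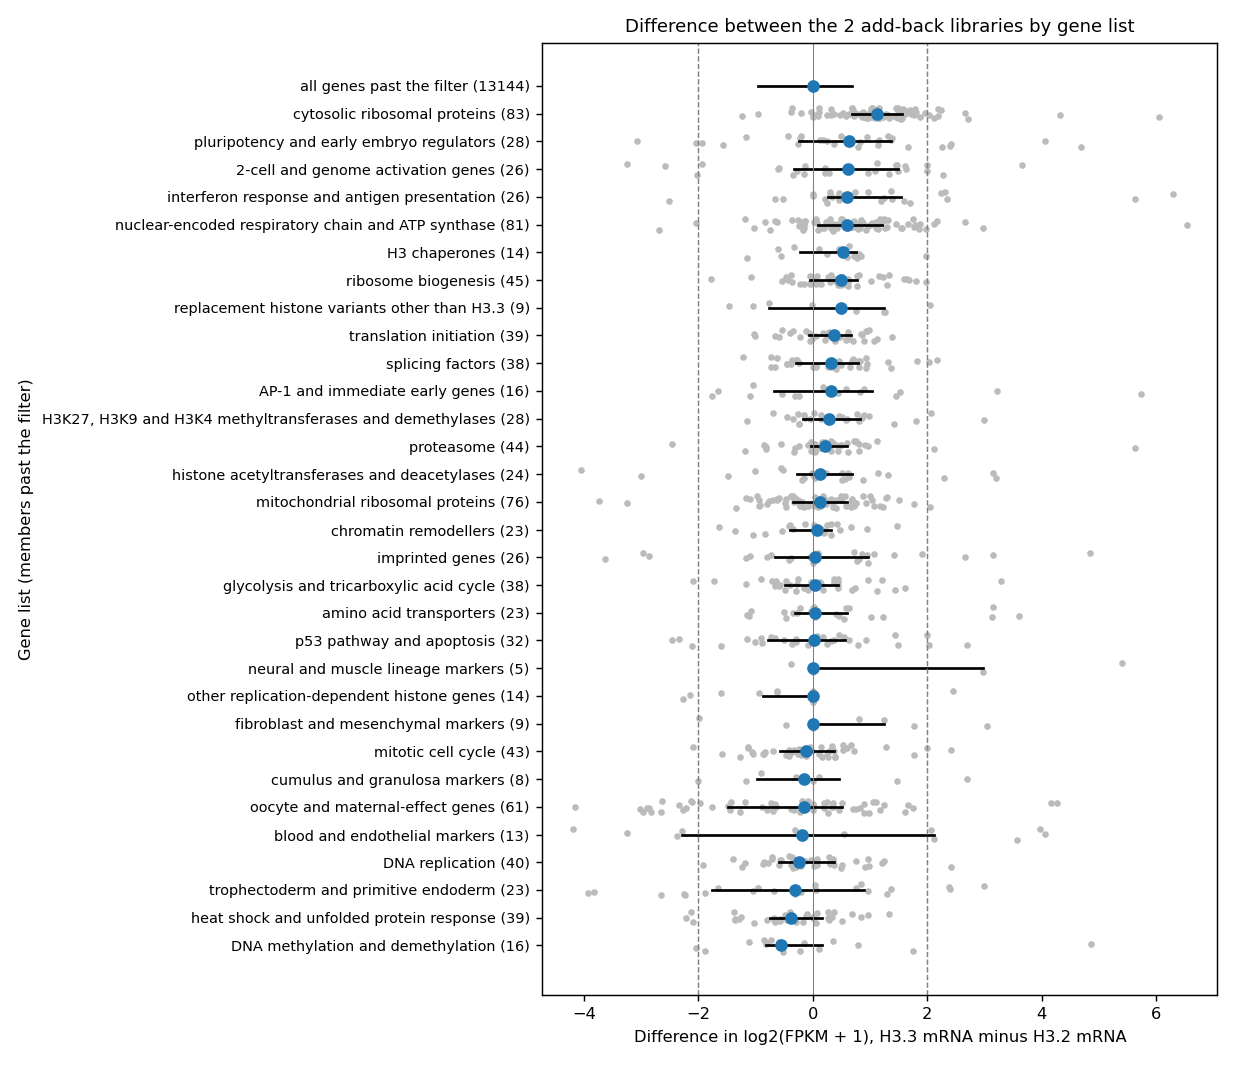
Difference in log2(FPKM + 1) between the libraries labelled H3.3 mRNA and H3.2 mRNA (x axis) for each list of at least 5 members past the filter (y axis, number of members in brackets), with grey points for members, blue points for medians and black lines for quartiles. Dashed lines mark 4-fold. The cytosolic ribosomal proteins have a median of 1.12 and the DNA methylation genes one of -0.56.

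Pluripotency and early embryo regulators had a median of 0.64 over 28 of 33 members, with 5 called higher and 2 lower. Prdm14, a PR-domain factor of naive pluripotency, stood at 24.8 FPKM with the H3.3 label and was listed at 0 with the H3.2 label and in the knockdown, whereas the controls stood at 40.3 and 12.9 FPKM. Nanog, a core pluripotency factor, stood at 9.59 against 0.99 FPKM, with 21.8 and 52.1 FPKM in the controls and a listed 0 in the knockdown. Together with Tbx3, these genes had both controls on the H3.3 side. Klf5 stood at 309 against 58 FPKM, and Myc at 51.4 against 9.93 FPKM. For Myc all other libraries (69.9 to 175 FPKM) lay on the H3.3 side, and for Klf5 the luciferase library alone (182 FPKM). Pou5f1, at 391 and 157 FPKM, was not called, and the knockdown (479 FPKM) was above both add-back libraries. Lower in the H3.3-labelled library were Nodal (listed at 0 against 7.45 FPKM), a ligand of the TGF-beta family, and its coreceptor gene Tdgf1 (listed at 0 against 3.11 FPKM). For Tdgf1 all other libraries (2.99 to 95.15 FPKM) lay on the H3.2 side, and for Nodal the untreated library alone (35.25 FPKM). Esrrb, at 13.9 and 32.5 FPKM, was not called, and for it the luciferase library alone (66.5 FPKM) lay on the H3.2 side.

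**Figure D5:**
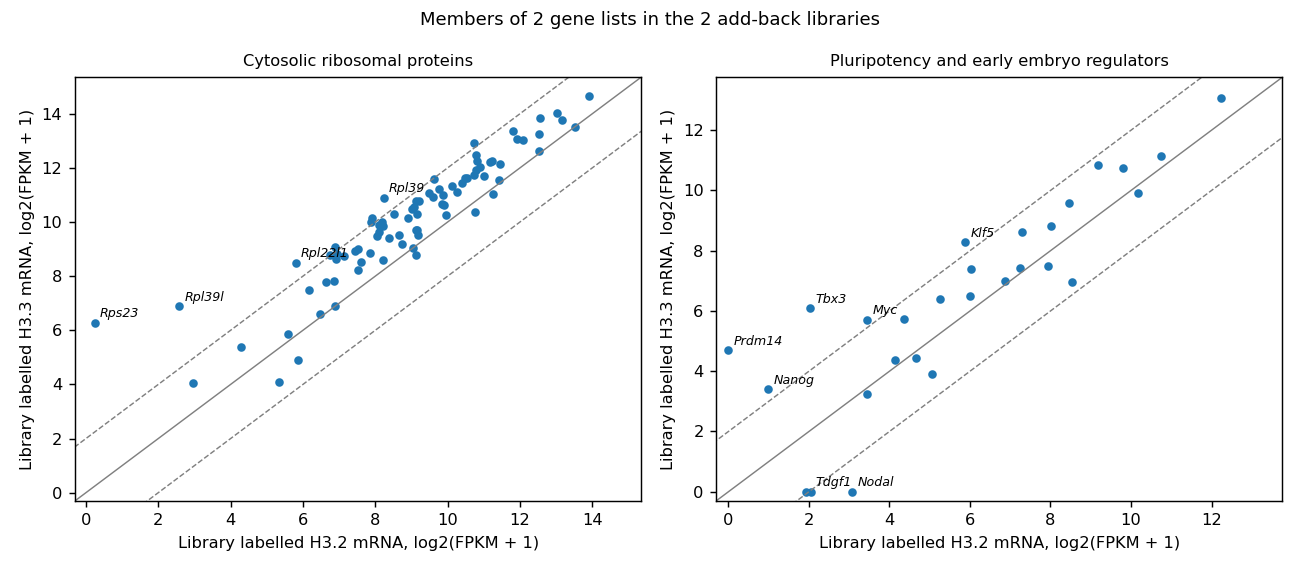
Level in log2(FPKM + 1) of cytosolic ribosomal proteins (left) and pluripotency and early embryo regulators (right) in the library labelled H3.2 mRNA (x axis) and the library labelled H3.3 mRNA (y axis), 1 point per gene, with the line of equality and dashed lines at 4-fold. Of the ribosomal protein points 77 of 83 lie above equality, and of the pluripotency points 19 of 28.

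Regulators of trophectoderm and primitive endoderm, which form extraembryonic tissues, went both ways, with a median of -0.32 and 3 higher and 5 lower of 23 members past the filter. Tead4, a trophectoderm factor that acts with Yap1, stood at 814 against 154 FPKM, where the controls stood at 645 and 528 FPKM and the knockdown at 207 FPKM, so the controls lay on the H3.3 side. Fgfr2, an FGF receptor gene, stood at 50.9 against 8.91 FPKM and the laminin gene Lama1 at 7 FPKM against a listed 0. Lower were Dab2, the keratin gene Krt18 (listed at 0 against 13.1 FPKM, with 48.7 to 435 FPKM elsewhere), Gata3 (listed at 0 against 3.76 FPKM), the collagen gene Col4a1 (listed at 0 against 3.68 FPKM) and Tcfap2a (listed at 0 against 5.29 FPKM). Tcfap2a was listed at 0 in all other libraries and passed the filter through this one alone. The median was 0.05 over members above 0 in all 5 libraries and 0.03 over those above 0 in both add-back libraries, so its sign depends on the filter. Krt8, the partner of Krt18, stood at 22.5 and 44.8 FPKM and was not called, against 184 and 836 FPKM in the controls. For Krt8 and Krt18 both add-back libraries were thus far below both controls. Against the knockdown these genes differed. Krt8 was listed at 0 there, under both add-back libraries, and Krt18 stood at 48.7 FPKM, above both.

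Oocyte and maternal-effect genes held the largest number of lower calls of any list: 13 of 61 (21.3%) were lower in the H3.3-labelled library and 2 (3.28%) higher, with a median of -0.16. Bmp15, a growth factor made by the oocyte, stood at 24.9 against 111.7 FPKM, and Wee2, the oocyte form of the Wee1 kinase, at 37.1 against 235 FPKM. Nlrp5 and Nlrp14, maternal-effect genes of the NLR family, stood at 22 against 109.7 FPKM and 32.1 against 142 FPKM, and Nlrp9c at 6.6 against 55.7 FPKM. In the untreated library these 5 genes lay between 10.8 and 141 FPKM. Fbxw15, Cpeb1, Ddx4 and Fbxo43 stood at 2.52 to 4.81 FPKM against 26.7 to 61.9 FPKM, and Cnot6l, a subunit of the mRNA deadenylase, at 13.1 against 70.5 FPKM. Of the genes named so far in this group, all but Fbxw15 and Fbxo43 were higher with the H3.2 label than in every other library. Mos, a kinase of meiotic arrest, went the other way (18.2 FPKM against a listed 0), as did Oas1h (16.9 FPKM against a listed 0), and Zar1 (64.4 against 18.4 FPKM) and the linker histone gene H1foo (426 against 179.6 FPKM) were not called. The median was 0.26 over members with a mean of 50 FPKM or more, so its sign depends on the filter.

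Genes of the 2-cell stage and genome activation had a median of 0.62 with 2 higher and 3 lower of 26, and the median was 0.21 at a mean of 5 or 50 FPKM or more. The deubiquitinase gene Usp17l5 stood at 24.1 against 237 FPKM and Gm13109 at 36 against 220.2 FPKM, and in both the H3.2-labelled library was above all others. Both belong to families of near-identical copies. Arg2, a mitochondrial arginase gene, stood at 225 against 918 FPKM, with 993 FPKM in the knockdown and 73.9 and 332 FPKM in the controls. Tdpoz4 stood at 129 against 25.8 FPKM and Tdpoz3 at 11.5 FPKM against a listed 0. Imprinted genes had a median of 0.05 with 3 higher (Mirg, Slc38a4 and Meg3) and 3 lower (Ndn, Mkrn3 and Mest) of 26. Meg3, a noncoding RNA gene of the Dlk1 region, stood at 91 against 13.5 FPKM, and Mest, an imprinted hydrolase gene, at 16.5 against 126 FPKM.

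Of the 14 genes in the list of H3 chaperones none was called. Their median difference was 0.53, with 10 above 0 and 4 below, and most have levels at which few genes of any kind were called. Cabin1, a subunit of the HIRA complex, differed most, at 205 FPKM with the H3.3 label and 51.5 FPKM with the H3.2 label, against 131, 52.3 and 43.6 FPKM in the untreated, luciferase and knockdown libraries. Hira itself stood at 285 and 162 FPKM, Ubn1 at 97.6 and 70.8 FPKM, Ubn2 at 15.8 and 24.6 FPKM, and Asf1a, which hands H3 to HIRA, at 29.2 and 65.8 FPKM. Of the DAXX and ATRX pathway, Daxx stood at 199 and 131 FPKM and Atrx at 43.8 and 26.3 FPKM, with 2.44 and 2.76 FPKM of Atrx in the untreated and knockdown libraries. The CAF-1 subunit genes Chaf1a (408 and 263 FPKM) and Chaf1b (322 and 472 FPKM) lay on opposite sides, and Rbbp4 stood at 49.3 and 28.5 FPKM. Asf1b (381 and 480 FPKM), Dek (231 and 214 FPKM), Ipo4 (749 and 419 FPKM) and Nasp, which holds soluble H3 (3032 and 2552 FPKM), complete the list. Among replacement variants, H2afy2 was called (3.12 FPKM against a listed 0), and H2afx (669.5 and 277 FPKM), H2afj (27.5 and 77.5 FPKM), Cenpa (163 and 336 FPKM) and H2afz (1398 and 2367 FPKM) were not. Of 14 other replication-dependent histone genes past the filter, Hist1h1a was higher (45.9 against 7.57 FPKM), and Hist1h1c and Hist1h4d were listed at 0 against 3.82 and 3.44 FPKM.

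Calls among chromatin enzymes ran from 5 of 24 acetyltransferases and deacetylases to 0 of 23 remodellers, against 21% over all genes. The share called falls with level, and the classes were not matched for level. Of 28 methyltransferases and demethylases of histone H3, Ehmt2, which dimethylates H3K9, was higher (443 against 105.3 FPKM, with 417, 316 and 138 FPKM in the untreated, luciferase and knockdown libraries), as was Kdm4d (6.93 FPKM against a listed 0), and 0 were lower. Setdb1 (492 and 183 FPKM), Kdm5c (70.9 and 19.5 FPKM) and the H3K27 demethylase gene Kdm6a (154 and 341 FPKM) were not called. Acetyltransferases and deacetylases were called as often as all genes, with 12.5% higher and 8.33% lower. Hdac5 (79.1 against 7.67 FPKM), Hdac4 (35.8 against 3.17 FPKM) and Hdac8 (19.6 against 3.21 FPKM) were higher, and Hdac10 and Hdac9 were listed at 0 against 15.5 and 7.03 FPKM. None of 23 chromatin remodellers was called, with Smarca2 (15.4 and 50.2 FPKM) and Chd3 (22.5 and 7.49 FPKM) furthest apart. DNA methylation and demethylation genes had a median of -0.56 over 16 members, and of -0.22 at a mean of 5 FPKM or more, with 1 higher and 1 lower. The reader gene Mbd2 stood at 28.1 FPKM against a listed 0, and the dioxygenase gene Tet2 at 0.61 against 5.58 FPKM. Dnmt3b (117 and 33.9 FPKM), Mbd4 (4.41 and 19 FPKM) and Tet1 (20.5 and 45.4 FPKM) were not called.

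Heat shock and unfolded protein response genes were lower on balance in the H3.3-labelled library, with a median of -0.37, 12 members above 0 and 25 below, and 0 higher and 3 lower calls of 39. Pdia6, a disulfide isomerase gene of the endoplasmic reticulum, stood at 51.2 against 242 FPKM, where the controls stood at 1034 and 462 FPKM and the knockdown at 70.7 FPKM. Xbp1, a regulator of the unfolded protein response, stood at 22.2 against 97.3 FPKM, where the controls stood at 73.1 and 262 FPKM and the knockdown at 30.9 FPKM. In both the H3.3-labelled library lay with the knockdown and the H3.2-labelled library on the side of both controls. Hsf2 was listed at 0 against 3.37 FPKM, and Hspb1 (17.9 and 48.1 FPKM) and Hspa4l (13.2 and 35.3 FPKM) were not called.

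Interferon response and antigen presentation genes had a median of 0.60, with 21 of 26 above 0 and 3 below, and 5 higher and 1 lower call. Psmb8, a subunit of the immunoproteasome, stood at 48.8 FPKM with the H3.3 label and 1107 FPKM in the untreated library and was listed at 0 in the other 3. Ifitm1 stood at 77.9 FPKM against a listed 0, with 160.2 FPKM in the knockdown, and Isg20 at 104.6 against 21.5 FPKM. Tap2 (21.3 against 3.4 FPKM) and H2-Q7 (14.8 against 2.17 FPKM) were higher, and Irf7 was listed at 0 against 4.68 FPKM. In the control pair this list had a median of 2.33 toward the untreated library, which like the H3.3-labelled library carries the source name NT, and the part of that split was not tested. Of 16 AP-1 and immediate early genes, Fosl1 and Dusp1 (66.4 against 6.28 FPKM) were higher, and Ier2 (49.1 and 169 FPKM), Jun (6.38 and 22.1 FPKM) and Mafk (86.5 and 29.3 FPKM) were not called.

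The remaining lists had medians within 0.25 of 0. In the p53 pathway and apoptosis list 2 were higher (Bik at 50.7 against 6.95 FPKM and Perp at 46.9 against 10.7 FPKM) and 3 lower of 32 (Casp2 at 19.9 against 113 FPKM, Mdm4 at 46.5 against 238 FPKM and Bcl2 at 0.65 against 6.16 FPKM). Of 43 mitotic genes, the phosphatase gene Cdc25a was higher (189.9 against 34.6 FPKM) and the centriole kinase gene Plk4 lower (64.7 against 278 FPKM). Of 40 DNA replication genes, Pold1, a polymerase delta subunit, was higher (253 against 46.5 FPKM) and 0 lower. In the glycolysis and tricarboxylic acid cycle list Pfkm (44.4 against 3.62 FPKM) was higher and Fh1 (50.5 against 218 FPKM) lower of 38. Of 44 proteasome genes Psmb8 and Psmb11 (10.3 against 1.6 FPKM) were higher and Psma8 was listed at 0 against 4.53 FPKM. Of 23 amino acid transporter genes Slc7a3 (11.2 FPKM), Slc38a4 (7.92 FPKM) and Slc7a2 (7.76 FPKM) were higher, each against a listed 0.

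Lineage markers past the filter were few. Of 13 blood and endothelial genes 5 were higher and 4 lower, among them Klf1 (listed at 0 against 17.2 FPKM), Hba-a1 (15.8 FPKM against a listed 0) and Hba-a2 (10.8 FPKM against a listed 0). The globin genes Hba-a1 and Hba-a2 are near-identical. Of 9 fibroblast and mesenchymal genes S100a6 was higher (149 against 17.2 FPKM), with 279 FPKM in the knockdown. Of 8 cumulus and granulosa genes Npr2 was higher (18.5 against 2.02 FPKM) and Star lower (1.39 against 8.59 FPKM). Of 5 neural and muscle genes Col2a1 (41.6 FPKM) and Acta1 (6.85 FPKM) were higher, each against a listed 0. Both passed the filter through the H3.3-labelled library, as their mean over the other 4 was under 1 FPKM.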

How the data were processed

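The 5 libraries, 1 per group, were made from total RNA with TruSeq reagents, and 51 bases were sequenced from 1 end, per the labels' protocols. The authors used TopHat, Cufflinks and the mm9 build to obtain FPKM, per the submitters' processing notes, where versions are missing. The deposited FPKM values were used as they stand, for 22026 symbols. FPKM is scaled to each library's total, so abundant transcripts shift all others, and near-identical genes can trade reads. The depth is unknown.

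Values were compared as log2(FPKM + 1) over 13144 genes whose mean reached 1 FPKM, with a call at 4-fold, in Python (pandas 2.3.3, numpy 2.4.6). No test was possible. The functions were tested on simulated data. The members, the 33 lists (1178 of 1196 entries matched) and the rules were chosen with earlier results of these data known. Named genes are the 15 highest and lowest above 0 in all libraries, the 8 highest and lowest listed at 0 in 1 of the 2, the 8 largest of each pattern and up to 5 per list, without clone and model names except where a list holds one. Lengths came from GENCODE M21 (98.8% of genes) and promoters from RefSeq (78.7%), too few for a check over all genes.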

Additional observations from a re-analysis of the deposited data

How the results depend on the processing

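Of the counts of genes called, 1101 higher and 1661 lower became 557 and 605 with a pseudocount of 5, 535 and 587 over genes above 0 in both add-back libraries, 328 and 402 over genes above 0 in all 5 libraries, 247 and 220 at a mean of at least 50 FPKM, 2479 and 3178 at 2-fold, and 584 and 848 at 8-fold. At a mean of at least 5 FPKM 1045 were lower. The balance thus turned toward higher genes at 50 FPKM. The 240 and 221 genes of the mirror-image patterns became 71 and 64 above 0 in all 5 libraries and 115 and 102 at 8-fold. The ratio of the H3.3 gene sums, 1.11, was 1.10 with median-ratio scaling. The filters test fewer genes and the fold settings move the threshold itself. For the pseudocount and the scalings the cause was not tested. Upper-quartile scaling moved the median of all genes to -0.13 and gave 1037 higher and 1793 lower genes. Under quantile normalization 2379 of 2689 called genes were among the 2762. Over 11 alternatives the median of the ribosomal protein list ranged from 0.76 to 1.13, of the pluripotency list from 0.25 to 0.89 and of the heat shock list from -0.51 to -0.29. The DNA methylation list, from -0.70 to -0.22, was not below the heat shock list in all of them. The median's sign turned in 1 or 2 alternatives for the lists of trophectoderm, oocyte, translation initiation, mitochondrial ribosomal, H3 methylation, remodeller, replacement variant, imprinted, mitotic, p53, glycolysis, proteasome and amino acid transporter genes. Alternatives chosen after seeing the data (small RNA genes left out, a filter over the 2 add-back libraries, a filter without the untreated library) gave 1092 to 1134 higher and 1647 to 1763 lower genes. Leaving out called genes under 1 FPKM over the other 4 libraries, also chosen after seeing the data, gave 869 and 1292. No paired analysis was possible because each group holds 1 library and the labels carry no replicate numbers.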
